A study of Mus musculus with 24 samples.

Results

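Vomeronasal type 2 receptors, the products of the Vmn2r genes, were examined in mouse liver through 46 genes of 19938 that the arrays measured with probe sets carrying 1 gene symbol each. A gene was taken as a member where the array annotation gave a symbol of Vmn2r followed by a number. It was read from its brightest such probe set, by the mean over 24 arrays. These receptors are class C G protein-coupled receptors with a large extracellular domain. They are known from the sensory neurons of the basal layer of the vomeronasal organ, where they couple to the G protein alpha-o and bind peptides and proteins of urine, tears and other secretions, among them major urinary proteins, which the liver makes. Each such neuron expresses few of the variable receptors together with a broadly expressed co-receptor of the family that includes Vmn2r1. They are not known for a role in the liver.

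Liver RNA of 24 male litter mates aged 24 weeks and kept on regular chow was measured with 1 Affymetrix Mouse Gene 1.0 ST array for each mouse. The study asked how hepatic SREBP-1a, a transcription factor of lipid synthesis, and its phosphorylation act on gene expression. The 8 C57Bl6 mice were wildtype. The 8 alb-SREBP-1a mice carried, on the C57Bl6 background, a transgene for the HA-tagged N-terminal domain of human SREBP-1a, which is the transcriptionally active part, and the albumin promoter drove it in hepatocytes. The 8 alb-SREBP-1a∆P mice carried the same construct without the sites that MAP kinases phosphorylate. How many founder lines stood behind each genotype is not given in the sources used here. Levels are log2 RMA signals as deposited, and a change is a difference of group means in log2 units (log2 fold change ± standard error) from limma on 8 against 8 arrays. A probe set rose or fell where its p, adjusted by Benjamini-Hochberg over all 35556 probe sets, was under 0.05. The comparisons of the 2 transgenic lines with C57Bl6 share the C57Bl6 arrays, and both comparisons of alb-SREBP-1a∆P share its arrays, so their values are given side by side. The tissue label fitted its markers: 7 measured hepatocyte markers had a mean level of 13.7 in C57Bl6, of 13.5 in alb-SREBP-1a and of 13.4 in alb-SREBP-1a∆P.

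The family holds 126 symbols in the RefSeq gene table of mouse build GRCm38.p6, and all 46 genes were found there. They lie in clusters, with 15 on chromosome 17, 14 on chromosome 7, 7 on chromosome 5, 5 on chromosome 6 and 2 on chromosome 10. Vmn2r1, Vmn2r122 and Vmn2r121 were single genes on chromosomes 3, 4 and X. Promoter windows of 2 pairs from the chromosome 17 cluster are shown, 1 for its changes and 1 for its likeness. Over all 903 pairs of the windows held, the median identity was 50.9%, below that of both pairs shown. Each window holds the 300 bases around the start of the gene in RefSeq (GRCm38.p6), most of them upstream, 5′ to 3′ on the strand of the gene, and capitals mark the bases that differ from the other gene of the pair in a global alignment. The first pair holds the genes with the largest rises in alb-SREBP-1a∆P liver. It is Vmn2r93 (chr17:18298031-18298330, plus strand) and Vmn2r99 (chr17:19361885-19362184, plus strand), 78.5% identical:
Vmn2r93: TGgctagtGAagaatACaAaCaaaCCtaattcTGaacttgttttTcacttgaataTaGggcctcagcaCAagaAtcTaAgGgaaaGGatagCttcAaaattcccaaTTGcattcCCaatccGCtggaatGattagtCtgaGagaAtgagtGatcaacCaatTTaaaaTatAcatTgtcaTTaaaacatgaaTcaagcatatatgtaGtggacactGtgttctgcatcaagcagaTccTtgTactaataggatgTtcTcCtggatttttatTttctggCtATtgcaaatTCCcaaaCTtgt
Vmn2r99: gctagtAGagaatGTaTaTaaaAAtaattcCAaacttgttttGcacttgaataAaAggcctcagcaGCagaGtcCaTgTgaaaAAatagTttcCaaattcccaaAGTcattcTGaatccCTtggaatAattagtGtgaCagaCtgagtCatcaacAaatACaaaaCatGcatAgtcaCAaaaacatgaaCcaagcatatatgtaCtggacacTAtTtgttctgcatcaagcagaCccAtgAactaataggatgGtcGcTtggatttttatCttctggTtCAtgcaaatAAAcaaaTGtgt
The second pair is almost identical yet differed in measured change. It is Vmn2r111 (chr17:22573224-22573523, minus strand) and Vmn2r112 (chr17:22600898-22601197, plus strand), 98.3% identical with 5 differing bases in each window:
Vmn2r111: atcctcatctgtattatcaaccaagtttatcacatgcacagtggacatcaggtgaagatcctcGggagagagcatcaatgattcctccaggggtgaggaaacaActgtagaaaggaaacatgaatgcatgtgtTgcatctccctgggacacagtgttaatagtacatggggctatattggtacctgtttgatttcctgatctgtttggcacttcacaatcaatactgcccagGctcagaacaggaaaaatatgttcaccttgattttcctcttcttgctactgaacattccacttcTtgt
Vmn2r112: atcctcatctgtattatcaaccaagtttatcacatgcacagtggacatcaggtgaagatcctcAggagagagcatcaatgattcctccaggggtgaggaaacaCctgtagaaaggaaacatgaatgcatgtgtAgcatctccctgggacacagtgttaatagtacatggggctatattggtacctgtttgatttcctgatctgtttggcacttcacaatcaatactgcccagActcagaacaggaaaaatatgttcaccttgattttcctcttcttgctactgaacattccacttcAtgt
Windows were held for 43 of the 46 genes, all but Vmn2r76, Vmn2r77 and Vmn2r122. Their median GC content was 38.7%, against 52.7% over 32851 windows of mouse genes. The sterol regulatory element TCACNCCAC was in 0 of 43 windows on either strand, with 1.24% of all windows holding it, and the E-box CACGTG was in 0 of 43, with 7.15% of all windows holding it. For 34 of 43 genes the most similar window among the others lay on the same chromosome, and 26 of the 903 pairs were over 80% identical. The transcripts that the array probes read were not compared.

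All 46 genes were dim on these arrays. Their mean levels over 24 arrays ran from 2.14 to 4.91 with a median of 3.22, and every one lay under the median level of all probe sets, 5.61. Ordered by mean level, 28 of the 46 were in the dimmest 10% of all probe sets, 10 in the next group of that size, 5 in the third and 3 in the fourth. The brightest were Vmn2r54 at 4.91, Vmn2r26 at 4.85 and Vmn2r9 at 4.74. The detection p of the arrays is not among the values used here, so a dim level cannot be told from background hybridisation. In whole liver, more or fewer cells of a type and more or less RNA per cell cannot be told apart.

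The median level of the 46 genes on an array ran from 2.92 to 3.09 in C57Bl6 (median 3.01), from 2.99 to 3.32 in alb-SREBP-1a (median 3.16) and from 3.47 to 3.81 in alb-SREBP-1a∆P (median 3.56). The 8 alb-SREBP-1a∆P arrays lay above all 16 others, and the other genotypes overlapped. The dimmest 10% of probe sets, with the Vmn2r genes left out, also stood higher, with medians per array from 2.47 to 2.64 in C57Bl6, from 2.49 to 2.82 in alb-SREBP-1a and from 2.71 to 3.20 in alb-SREBP-1a∆P. The family lay above that group by 0.36 to 0.61 in C57Bl6, by 0.40 to 0.59 in alb-SREBP-1a and by 0.58 to 0.86 in alb-SREBP-1a∆P, and these ranges overlapped. The SD of all log2 values on an array was lower in alb-SREBP-1a∆P (2.02 to 2.09) than in C57Bl6 (2.18 to 2.25).

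**Figure D1:**
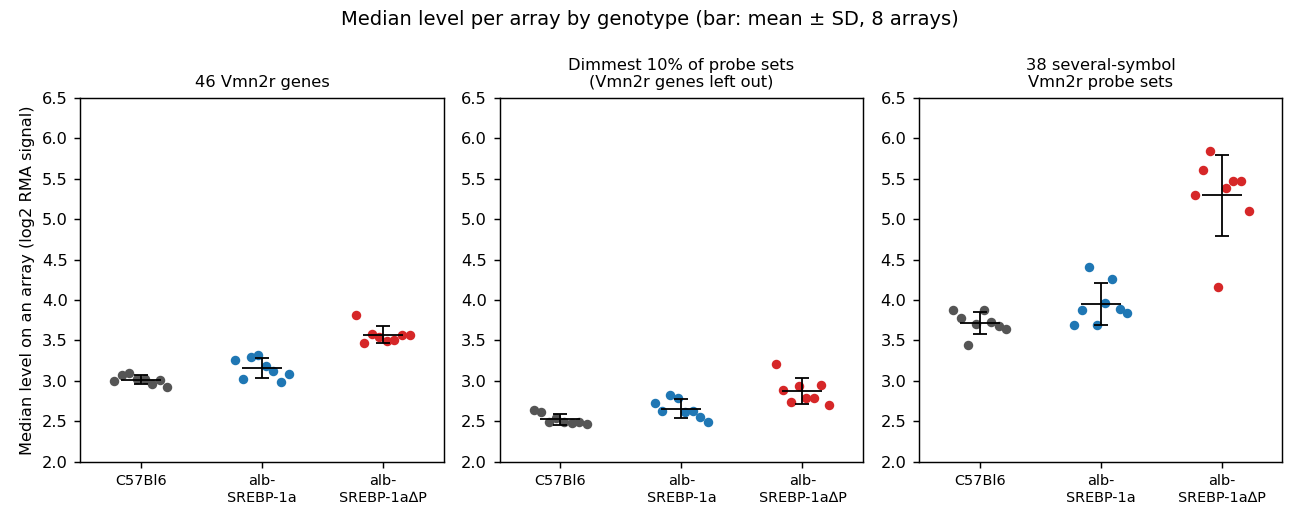
Median log2 RMA signal per array (y axis) by genotype (x axis) for the 46 Vmn2r genes, the dimmest 10% of all probe sets without them, and 38 Vmn2r probe sets with several gene symbols. Points are arrays, and bars give mean ± SD over 8 arrays. The family median was 3.47 to 3.81 in alb-SREBP-1a∆P, above all other arrays, and the several-symbol probe sets ran from 4.17 to 5.84 there, with replicate 4 lowest.

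In alb-SREBP-1a liver 2 of 46 genes rose and 0 fell, and the other 44 missed the threshold. Over all probe sets 6.77% rose and 3.98% fell. Vmn2r78, a chromosome 7 receptor, was at 2.03, 2.19 and 2.41 in C57Bl6 (lowest, median and highest array), at 2.17, 2.71 and 3.70 in alb-SREBP-1a and at 2.48, 3.11 and 4.21 in alb-SREBP-1a∆P. Of the alb-SREBP-1a arrays 6 of 8 lay above every C57Bl6 array, and the gene rose by 0.56 ± 0.17 (limma, adjusted p = 0.042). Vmn2r76, from the same chromosome, ran from 2.45 to 2.89 in C57Bl6 (median 2.69) and from 2.67 to 3.32 in alb-SREBP-1a (median 3.09), rising by 0.38 ± 0.10 (adjusted p = 0.017). The groups overlapped for both, and no member separated the genotypes fully, as 2.03% of all probe sets did by lying higher on every array. Among the 44 others the changes ran from -0.39 ± 0.17 for Vmn2r56 (adjusted p = 0.158) to 0.33 ± 0.13 for Vmn2r65 (adjusted p = 0.106). In all, 33 genes were higher and 13 lower, against 52.3% of all probe sets higher, and the median change was 0.12, which became -0.010 after quantile normalization. At an unadjusted p under 0.05, 6 of 46 were higher and 1 was lower, against 5084 and 3654 of all 35556 probe sets. The methods' t-test with Benjamini-Hochberg called 1 gene, and its share over all probe sets was not counted. Neither the Vmn2r78 nor the Vmn2r76 call held in a fit of all 24 arrays, with quantile normalization or with cyclic loess. There 0 members and 5.48%, 6% and 6.64% of all probe sets were called higher.

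In alb-SREBP-1a∆P liver 35 of 46 genes rose against C57Bl6, 0 fell (limma, 0 lower at an unadjusted p under 0.05 and 0 by the methods' t-test) and 11 did not pass. The share that rose over all probe sets was 27%, with 20.2% fallen. It was 41.5% in the dimmest 10%, to which most members belong and in which 21 of 28 members rose. All 46 genes were higher as deposited, against 59.6% of all probe sets, by a median of 0.42 (1.34-fold) and a range of 0.085 to 1.11. The median change was 0.37 in the dimmest 10% and 0.11 over all probe sets. In 5 genes, Vmn2r83, Vmn2r99, Vmn2r23, Vmn2r24 and Vmn2r78, every alb-SREBP-1a∆P array lay above every C57Bl6 array, as did 5.34% of all probe sets. The 11 genes that did not pass were Vmn2r19, Vmn2r54, Vmn2r56, Vmn2r66, Vmn2r71, Vmn2r81, Vmn2r94, Vmn2r105, Vmn2r110, Vmn2r112 and Vmn2r118.

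These counts rested on the scaling between arrays. Quantile normalization left 9 genes that rose (12.9% of all probe sets), centring each array on its median left 19 (13.4%) and cyclic loess left 7 (16%), with 0 fallen under each (18.8%, 28.7% and 15.3% of all probe sets fell). In the dimmest 10% the shares that rose were 9.59%, 20.1% and 6.3%. The median change of the family was then 0.099, 0.26 and 0.080, and of the dimmest 10% it was 0.065, 0.21 and -0.0095. The change of the median probe set moved by -0.14, -0.16 and -0.11 with them, and 32 of the 46 genes were higher under all of them and as deposited. Under cyclic loess the share of members that rose was 15.2%, against 16% of all probe sets and 6.3% of the dimmest 10%. The 7 genes that rose under every scaling were Vmn2r23, Vmn2r27, Vmn2r60, Vmn2r78, Vmn2r83, Vmn2r93 and Vmn2r99.

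**Figure D2:**
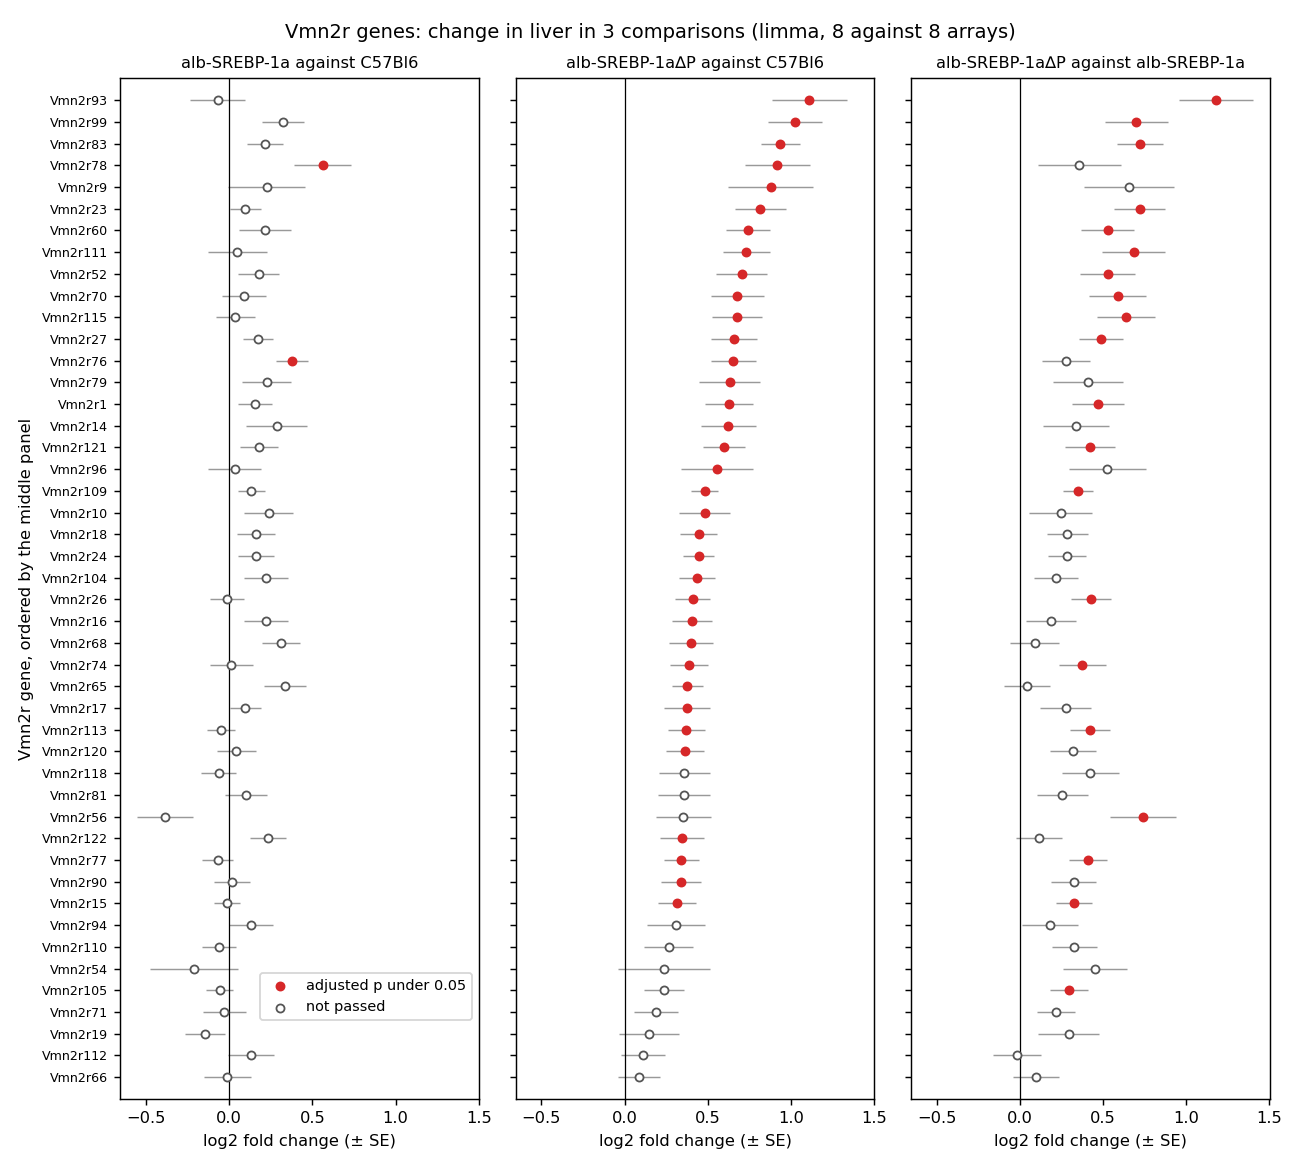
log2 fold change ± standard error (x axis) of each of the 46 Vmn2r genes (y axis) in 3 comparisons, from limma on the deposited values. Filled points passed the test and open points did not: 2 genes passed in the left panel, 35 in the middle and 20 in the right.

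Vmn2r93 showed the largest rise. It was at 3.74, 4.23 and 4.69 in C57Bl6 (lowest, median and highest array), at 3.46, 4.15 and 4.55 in alb-SREBP-1a and at 4.28, 5.43 and 6.18 in alb-SREBP-1a∆P. Its lowest alb-SREBP-1a∆P array was replicate 4, the 1 array inside the range of the others, and the 7 remaining arrays lay above both other genotypes. The rise was 1.11 ± 0.23 against C57Bl6 (2.16-fold, adjusted p = 0.000843) and 1.18 ± 0.22 against alb-SREBP-1a (adjusted p = 0.000876), and 0.82 and 0.89 after cyclic loess. Vmn2r99, the other gene of the first pair shown above, was much dimmer, at 2.56, 2.74 and 3.01 in C57Bl6, between 2.74 and 3.81 (mean 3.09) in alb-SREBP-1a and at 3.02, 3.87 and 4.57 in alb-SREBP-1a∆P. It stood above C57Bl6 on all 8 arrays, by 1.02 ± 0.16 (adjusted p = 9.29e-05), and was 0.32 ± 0.13 higher in alb-SREBP-1a than in C57Bl6 without passing the test (adjusted p = 0.121).

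Vmn2r83, on chromosome 10, had the smallest adjusted p of the family. It was at 3.78, 4.01 and 4.17 in C57Bl6, at 3.73, 4.23 and 4.63 in alb-SREBP-1a and at 4.51, 4.95 and 5.31 in alb-SREBP-1a∆P. The groups did not overlap against C57Bl6 and against alb-SREBP-1a 6 of 8 arrays lay above, and the rises were 0.94 ± 0.12 (adjusted p = 1.12e-05) and 0.72 ± 0.14 (adjusted p = 0.000863). Its second, dimmer probe set changed by 0.36 ± 0.16 against C57Bl6 and did not pass (adjusted p = 0.0773). Vmn2r23, on chromosome 6, was at 2.76, 3.03 and 3.24, at 2.85, 3.10 and 3.40 and at 3.29, 3.90 and 4.60 in the 3 genotypes in the same order. Every alb-SREBP-1a∆P array was above C57Bl6 and 7 of 8 were above alb-SREBP-1a, with rises of 0.82 ± 0.15 (adjusted p = 0.000398) and 0.72 ± 0.16 (adjusted p = 0.00195). With Vmn2r93 and Vmn2r83 it was 1 of 3 genes that rose against alb-SREBP-1a under every scaling. The second, dimmer probe set of Vmn2r23 changed by 0.31 ± 0.19 against alb-SREBP-1a and did not pass (limma, adjusted p = 0.181).

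Further rises against C57Bl6 were 0.92 ± 0.19 for Vmn2r78 (adjusted p = 0.00105), 0.88 ± 0.26 for Vmn2r9 (adjusted p = 0.0101), 0.74 ± 0.13 for Vmn2r60 (adjusted p = 0.000242) and 0.73 ± 0.14 for Vmn2r111 (adjusted p = 0.000513). Vmn2r9, of the chromosome 5 cluster, was widely spread, from 3.83 to 5.04 in C57Bl6 and from 4.12 to 6.20 in alb-SREBP-1a∆P, and only 5 of 8 arrays lay above C57Bl6. By cluster as deposited, 7 of 7 genes on chromosome 5 rose, 10 of 14 on chromosome 7, 10 of 15 on chromosome 17, 4 of 5 on chromosome 6 and 1 of 2 on chromosome 10. The single genes Vmn2r1, Vmn2r122 and Vmn2r121 rose as well. Over all probe sets 27% rose, and in the dimmest 10% 41.5% did. The chromosome 5 calls were all lost with quantile normalization and with cyclic loess, and centring kept only those of Vmn2r9 and Vmn2r14.

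The second chromosome 17 pair shown above, with almost identical windows, gave unlike values. Vmn2r111 was at 2.45, 2.79 and 3.11 in C57Bl6, at 2.47, 2.70 and 3.93 in alb-SREBP-1a and at 2.93, 3.59 and 3.97 in alb-SREBP-1a∆P, where 7 of 8 arrays lay above C57Bl6. Its rise against C57Bl6 did not pass with cyclic loess (0.37). The second, dimmer probe set of Vmn2r111 changed by 0.50 ± 0.23 and did not pass (limma, adjusted p = 0.0894). Vmn2r112 was at 3.14, 3.53 and 3.92, at 3.29, 3.68 and 4.20 and at 3.37, 3.60 and 4.23, with the 3 genotypes overlapping. It differed from C57Bl6 by 0.11 ± 0.13 (adjusted p = 0.506) and was the 1 gene of 46 whose mean was not highest in alb-SREBP-1a∆P. Vmn2r115, whose window is 97.0% identical to that of Vmn2r112, rose by 0.68 ± 0.15 (adjusted p = 0.0016). The difference in change between these genes was not tested, and how far copies share probes was not tested.

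Receptors with a known role in the vomeronasal organ were few among the members. Vmn2r1, the broadly expressed co-receptor, was at 3.40, 3.55 and 3.82 in C57Bl6, at 3.24, 3.73 and 4.02 in alb-SREBP-1a and at 3.58, 4.14 and 4.85 in alb-SREBP-1a∆P. It rose by 0.63 ± 0.14 against C57Bl6 (adjusted p = 0.00198) and by 0.47 ± 0.16 against alb-SREBP-1a (adjusted p = 0.0221), and neither call held with quantile normalization, where the changes were 0.29 and 0.23. Vmn2r26, known for its response to peptides that bind MHC class I molecules, was at 4.51, 4.72 and 4.92, at 4.37, 4.69 and 5.08 and at 4.70, 5.22 and 5.36. It rose by 0.41 ± 0.10 (adjusted p = 0.00419) and by 0.42 ± 0.12 (adjusted p = 0.00989), calls that no other scaling kept. Vmn2r54, the brightest member, was spread from 3.75 to 5.72 within C57Bl6 alone and changed by 0.24 ± 0.28 (adjusted p = 0.493). The co-receptors Vmn2r2 to Vmn2r7 and the receptors Vmn2r88 and Vmn2r116 have no probe set with 1 symbol here and were not analysed as single genes.

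**Figure D3:**
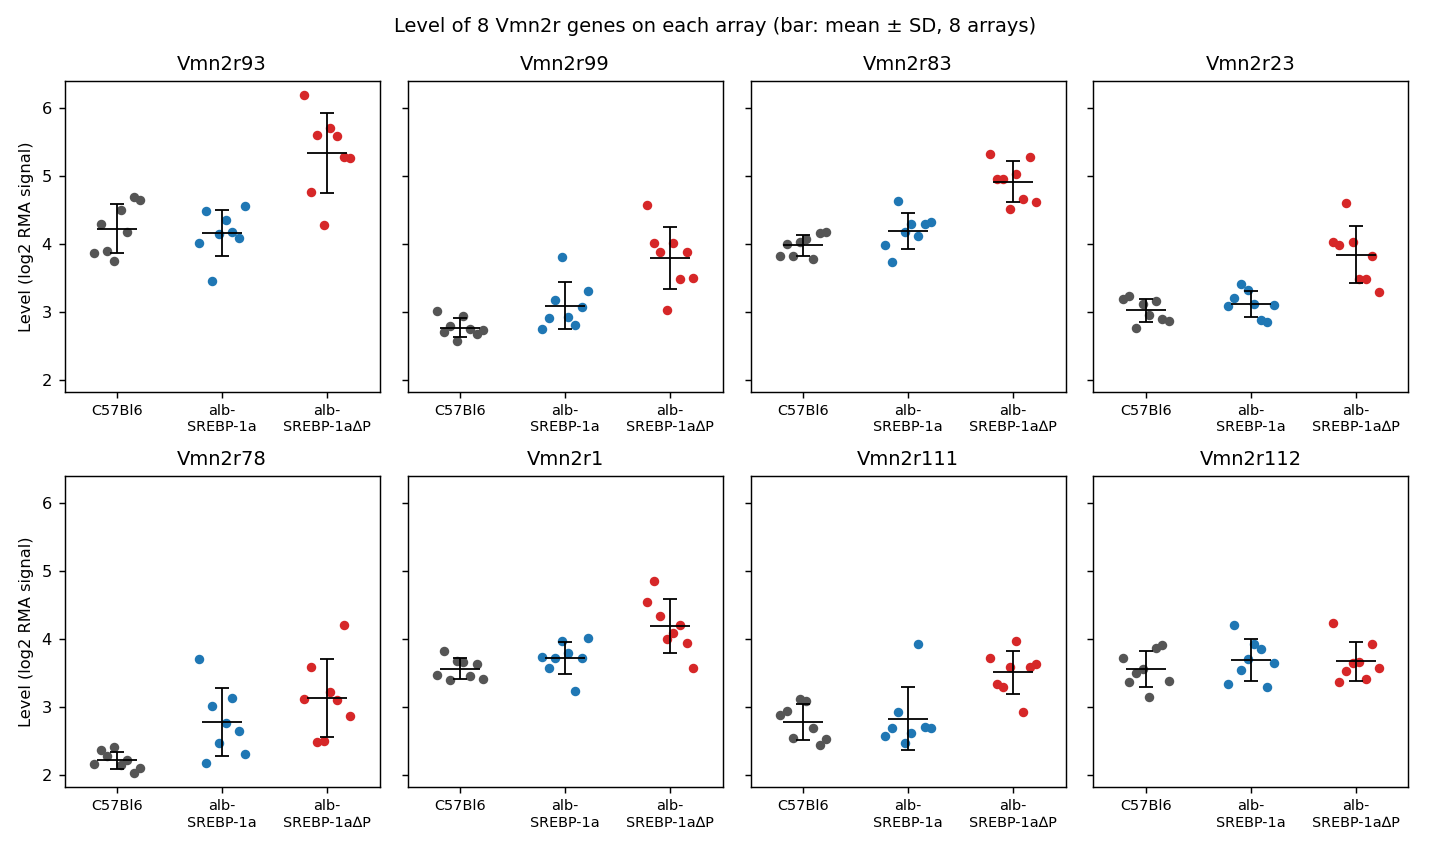
log2 RMA signal (y axis) of 8 Vmn2r genes on each array, by genotype (x axis). Points are arrays in no order, and bars give mean ± SD over 8 arrays. Vmn2r99, Vmn2r83, Vmn2r23 and Vmn2r78 did not overlap between alb-SREBP-1a∆P and C57Bl6, Vmn2r93 overlapped by 1 array, and Vmn2r112 overlapped throughout.

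Between the transgenic lines, which differ in the phosphorylation sites of the transgene, 20 of 46 genes were higher in alb-SREBP-1a∆P past the test, 0 were lower (limma, 0 at an unadjusted p under 0.05 and 0 by the methods' t-test) and 26 did not pass. Over all probe sets 22.8% rose and 21.4% fell, and in the dimmest 10% 21.7% rose. In total 45 genes were higher (56.2% of all probe sets), by a median of 0.35. No gene separated the lines on every array, against 1.88% of all probe sets. Counts again followed the scaling, with 4 genes that rose after quantile normalization (9.62% of all probe sets), 7 after centring (10.1%) and 3 after cyclic loess (11.3%), and 0 fell under each (13.8% and 32.1% of all probe sets with the first pair of scalings, and 3681 of 35556 with cyclic loess). The shares that rose in the dimmest 10% were then 5.85%, 8.21% and 3.97%. Besides the genes above, Vmn2r56 rose by 0.74 ± 0.20 (adjusted p = 0.00717), from 2.92, 3.47 and 4.04 in alb-SREBP-1a to 3.74, 4.05 and 4.88 in alb-SREBP-1a∆P, with C57Bl6 between them at 3.54, 3.74 and 4.32. Vmn2r115 rose by 0.64 ± 0.18 (adjusted p = 0.00847) and Vmn2r70 by 0.59 ± 0.17 (adjusted p = 0.0112). Side by side, 18 genes passed in both comparisons of alb-SREBP-1a∆P, 17 only against C57Bl6, Vmn2r56 and Vmn2r105 only against alb-SREBP-1a, and 9 in none of the 3 comparisons.

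The largest differences stood at probe sets that the annotation gives to several family members at once. In the array annotation 38 further probe sets carry 2 to 14 symbols with at least 1 Vmn2r gene, and 36 Vmn2r symbols are measured only there. No single gene can be read from them, 3 of them hold identical values, and they are not independent of each other. Their level was dim as well, at a median of 4.29. On an array their median ran from 3.44 to 3.88 in C57Bl6, from 3.69 to 4.41 in alb-SREBP-1a and from 4.17 to 5.84 in alb-SREBP-1a∆P. The alb-SREBP-1a∆P arrays lay above every C57Bl6 array, and replicate 4, at 4.17, fell inside the alb-SREBP-1a range while the other 7 began at 5.10.

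In alb-SREBP-1a∆P 36 of these 38 rose against C57Bl6 (94.7%, against 27% of all probe sets), by a median of 1.38 (2.59-fold). In the 4 dimmest of 10 level groups of all probe sets 37.1% to 43.6% rose. Of all 1621 probe sets of several symbols 49.8% did. On every array 23 of the 38 lay above C57Bl6, as did 5.34% of all probe sets. In alb-SREBP-1a 2 of 38 rose (5.26%, against 6.77% of all probe sets), and the median change over all 38 was 0.22. Between the lines 34 rose (89.5%, against 22.8% of all probe sets and 44.1% of all those of several symbols), with a median of 1.20. Split by symbol number after the values were seen, the 22 probe sets with 8 to 14 symbols all rose against C57Bl6, with a median of 1.67 (3.19-fold), and the 16 with 2 to 6 symbols had a median of 0.95 with 14 that rose. A probe set shared by Vmn2r111, Vmn2r112, Vmn2r113 and Vmn2r116 was at 3.80, 4.08 and 4.40 in C57Bl6, at 4.18, 4.43 and 5.00 in alb-SREBP-1a and at 4.89, 5.67 and 5.98 in alb-SREBP-1a∆P. It rose by 1.52 ± 0.14 (adjusted p = 7.26e-07), more than the probe sets of Vmn2r111 or Vmn2r112 alone, and was chosen after its values were seen. Without alb-SREBP-1a∆P replicate 4 the median of the 38 was 1.54 and 35 rose, with 27.1% of all probe sets risen.

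The counts at these probe sets moved less with the scaling than those of the single genes. Against C57Bl6, 31 rose and 1 fell after quantile normalization, 32 rose and 0 fell after centring, and 31 rose and 1 fell after cyclic loess, with medians of 1.14, 1.21 and 1.08. Of all probe sets 12.9%, 13.4% and 16% rose under these scalings, and 18.8%, 28.7% and 15.3% fell. Across the array, the 1455 probe sets of several symbols without a vomeronasal or olfactory receptor had a median change of 0.21 as deposited. Of these 654 rose (44.9%, against 27% of all probe sets). On every array 307 of the 1455 lay above C57Bl6, against 5.34% of all probe sets. The 4 probe sets of Vmn2r pseudogenes with 1 symbol each also rose, by a median of 0.96. What sets several-symbol probe sets apart was not tested.

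**Figure D4:**
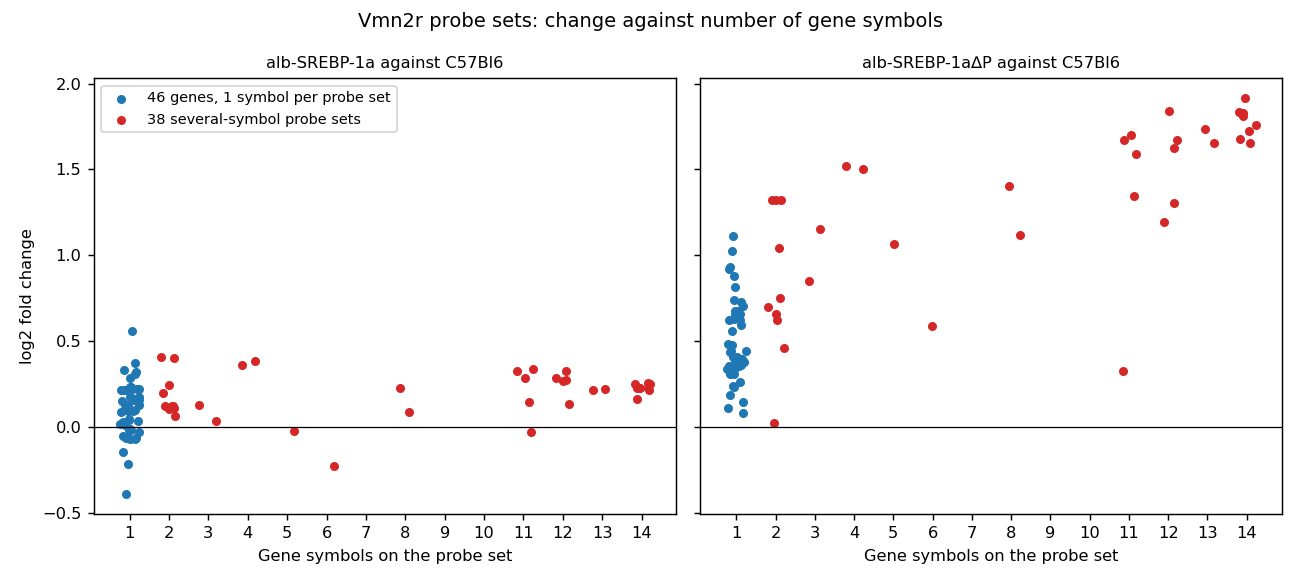
log2 fold change (y axis) of Vmn2r probe sets against the number of gene symbols they carry (x axis, points spread sideways for sight), in alb-SREBP-1a (left) and alb-SREBP-1a∆P (right) against C57Bl6. The 46 single genes reached at most 1.11 in the right panel, and the 22 probe sets with 8 to 14 symbols had a median of 1.67 there.

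**Figure D5:**
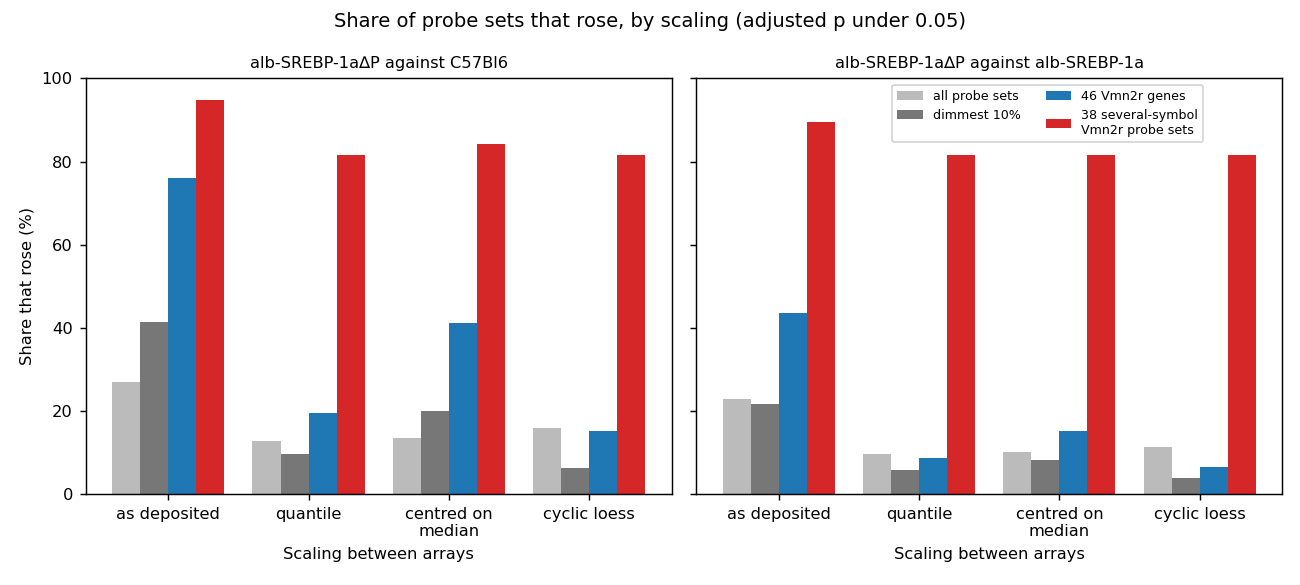
Share of probe sets called higher in alb-SREBP-1a∆P (y axis, percent) under 4 scalings between arrays (x axis), against C57Bl6 (left) and alb-SREBP-1a (right). Bars are all probe sets, the dimmest 10%, the 46 Vmn2r genes and the 38 several-symbol Vmn2r probe sets. The share of the 46 genes in the left panel was 76.1% as deposited and 15.2% after cyclic loess.

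Both other large receptor families of the nose were also higher in alb-SREBP-1a∆P liver as deposited. Against C57Bl6, 97 of 117 Vmn1r genes, the vomeronasal type 1 receptors, rose in alb-SREBP-1a∆P with a median of 0.56, and 842 of 1027 Olfr genes, the olfactory receptors, rose with a median of 0.56. These are 82.9% and 82% of the families, against 27% of all probe sets. Under cyclic loess 28 Vmn1r genes (23.9%) and 334 Olfr genes (32.5%) rose, against 16% of all probe sets. A difference of the Vmn2r genes from either family was not tested.

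Genes known from sensory neurons of the vomeronasal organ or the nose were read from lists chosen by function. The list of V2R neuron identity and signal transduction held 18 genes, and all but Trpc2 were measured with 1 symbol. Of 17 measured genes of V2R neuron identity and signal transduction, 4 rose (23.5%, against 27% of all probe sets) and 0 fell in alb-SREBP-1a∆P against C57Bl6, with a median of 0.18. After quantile normalization, centring and cyclic loess 0 rose and 2, 1 and 2 fell, with medians of -0.064, 0.021 and 0.0060. Those that rose as deposited were Ano2, a calcium-activated chloride channel, by 0.35 ± 0.11, Kcnn3, a calcium-activated potassium channel, by 0.34 ± 0.12, Plcb2, a phospholipase C, by 0.32 ± 0.09, and Rtp1, a chaperone of odorant receptors, by 0.30 ± 0.12. Gnao1, the G protein alpha-o of these neurons, changed by -0.11 ± 0.09 and did not pass (adjusted p = 0.313). Between the lines 6 of the 17 rose (35.3%, against 22.8% of all probe sets) and 1 fell as deposited, and 0 rose and 2 fell under each of the 3 other scalings. There 9.62%, 10.1% and 11.3% of all probe sets rose with quantile normalization, centring and cyclic loess. With quantile normalization and centring 13.8% and 32.1% of all probe sets fell, and with cyclic loess 3681 of 35556. In alb-SREBP-1a against C57Bl6 0 passed the test (limma, 2 higher at an unadjusted p under 0.05), while 1 rose with quantile normalization and 2 with cyclic loess. In that comparison 6% of all probe sets rose with quantile normalization and 6.64% with cyclic loess. Of 10 genes of the H2-Mv group, MHC molecules that V2R neurons carry, and their partner B2m, 4 rose against C57Bl6 (40%, against 27% of all probe sets). H2-M10.5 led at 0.56 ± 0.15, while B2m changed by -0.032 ± 0.069. With quantile normalization and with cyclic loess 0 of the 10 rose and 0 fell, and with centring 1 rose and 1 fell. In alb-SREBP-1a∆P against C57Bl6, 12.9%, 16% and 13.4% of all probe sets rose under these scalings, and 18.8%, 15.3% and 28.7% fell.

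Ligands of the family made by the liver did not pass the test as deposited. Major urinary proteins had 3 of 22 genes measured with 1 symbol: Mup3, at a level of 13.4, changed by -0.042 ± 0.074 in alb-SREBP-1a∆P against C57Bl6, Mup5 by 0.14 ± 0.14 and Mup21 by -0.38 ± 0.15 (adjusted p = 0.055). With each array centred on its median 2 of the 3 fell, with a median of -0.20, where 28.7% of all probe sets fell, and with quantile normalization and cyclic loess 0 passed. Between the lines 0 passed as deposited, 1 fell with centring and 1 rose with each of the 2 other scalings. Esp1, a peptide of tears and the 1 measured gene of 16 in its group, rose by 0.53 ± 0.09 from a level of 4.63 over 24 arrays, a call lost with quantile normalization and cyclic loess. Other class C receptors rose in 6 of 18 cases (33.3%, against 27% of all probe sets) and fell in 1, with a median of 0.23. After quantile normalization 2 rose and 1 fell, against 12.9% and 18.8% of all probe sets, and the median was 0.039. Gprc6a, a receptor for amino acids and cations, rose by 0.71 ± 0.13, and Gabbr2, a GABA receptor subunit and far brighter at 8.50, fell by 0.46 ± 0.14. Genes next to a Vmn2r gene in the RefSeq order, 40 of 51 measured, rose in 14 cases (35%) and fell in 10 (25%) against C57Bl6, close to the 27% and 20.2% of all probe sets. Their median change was 0.09 and that of all probe sets 0.11. With cyclic loess 2 of the 40 rose (5%) and 12 fell (30%), against 16% and 15.3% of all probe sets.

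Markers of vomeronasal or olfactory neurons, 7 of 8 measured, had summed levels from 33.2 to 35.1 in C57Bl6, from 32.3 to 35.1 in alb-SREBP-1a and from 34.4 to 37.3 in alb-SREBP-1a∆P. In alb-SREBP-1a∆P against C57Bl6, 3 of the 7 rose as deposited, namely Adcy3, Ncam1 and Stmn2, and 0 fell, against 27% and 20.2% of all probe sets. With quantile normalization and with cyclic loess 1 rose and 1 fell, and with centring 1 rose and 0 fell, against 12.9%, 16% and 13.4% of all probe sets that rose. None was at 0, since log2 array signals have no zero, and Omp, the marker of mature olfactory neurons, lay at 5.72, near the median of all probe sets, with a change of 0.31 ± 0.14 (adjusted p = 0.0799). Between the lines Omp rose by 0.44 ± 0.14 as deposited (limma, adjusted p = 0.0192). There 4 of the 7 rose (57.1%, against 22.8% of all probe sets) and 0 fell. With quantile normalization, centring and cyclic loess 0, 0 and 1 rose, against 9.62%, 10.1% and 11.3% of all probe sets. Of the liver's own cell types, 6 of 7 hepatocyte markers fell and 3 of 6 Kupffer cell markers rose in alb-SREBP-1a∆P against C57Bl6. The hepatocyte markers lay at 12.7 to 14.2, and in the brightest 10% of probe sets 1677 of 3556 fell. In the same comparison 2 of 4 lymphocyte markers rose. Of endothelial and stellate cell markers 1 of 5 each fell, and of cholangiocyte markers 0 of 4 passed. In alb-SREBP-1a against C57Bl6, 4 of 6 Kupffer cell markers rose and 2 of 7 hepatocyte markers fell (6.77% and 3.98% of all probe sets). The Kupffer cell markers had summed levels from 43.3 to 46.4 in C57Bl6, from 44.9 to 49.5 in alb-SREBP-1a and from 44.9 to 48.3 in alb-SREBP-1a∆P. In alb-SREBP-1a∆P against C57Bl6, quantile normalization, centring and cyclic loess left 4, 6 and 3 hepatocyte markers that fell. Of Kupffer cell markers 3, 0 and 5 rose. Of all probe sets 18.8%, 28.7% and 15.3% fell under these scalings, and 12.9%, 13.4% and 16% rose. The part of these cell types in the Vmn2r differences was not tested.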

How the data were processed

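Total RNA of 24 livers was amplified and labelled by the study and hybridised to Mouse Gene 1.0 ST arrays. The authors computed the deposited log2 values by RMA (robust multi-array average, which corrects background, scales arrays at the probe level and summarises probes) in Affymetrix Expression Console, and the sources used here give no further RMA settings. The values cover 35556 probe sets and range from 0.833 to 15.0. By GEO's platform annotation, which can be old, 21789 probe sets carry 1 symbol, 1621 several and 12146 none. The array annotation names no build, so only RefSeq windows have coordinates (GRCm38.p6).

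Groups came from the sample titles. The fits used limma 3.58.1 (lmFit, eBayes; R 4.3.3) on 8 against 8 arrays, with Benjamini-Hochberg adjustment over all probe sets, and called at an adjusted p under 0.05. The fit was tested on simulated data. Python 3.11.15, pandas 2.3.3, numpy 2.4.6, Biopython 1.88 (global alignment) and matplotlib 3.10.9 served for tables, alignment and figures. Members, gene lists and left-out arrays were chosen with earlier results of these data known. Genes were named by rule: per comparison the 8 largest rises and falls past the test, Vmn2r1 to Vmn2r7, Vmn2r88, Vmn2r116, the 3 brightest members, and up to 4 genes of each other list by smallest p. Others (Vmn2r112, the genes with no overlap, the genes that did not pass, and single list genes) were named after their values were seen. No set test was run.

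Alternatives were all 24 arrays in 1 fit, a replicate block, quantile normalization, centring, cyclic loess, dim probe sets left out, a variance trend, 1 or all probe sets per gene, the methods' t-test, and arrays left out (alb-SREBP-1a∆P replicate 4, alb-SREBP-1a replicates 1 and 2). The number of arrays limits precision, and a p-value reflects only how these mice varied.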

Additional observations from a re-analysis of the deposited data

Results flagged for a closer look

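Within a group of 8 arrays, the highest and lowest were checked for a gap that is wide against the range of the group. Of 54 groups checked, 5 held such an array. Chance flags about 1 in 20 groups. The median of the Vmn2r genes was 3.81 on alb-SREBP-1a∆P replicate 1, with the nearest array at 3.58. The median of the several-symbol Vmn2r probe sets was 4.17 on alb-SREBP-1a∆P replicate 4, with the nearest at 5.10. Single genes stood apart on other arrays: Vmn2r54 at 5.52 on alb-SREBP-1a replicate 8 (nearest 4.77), Vmn2r111 at 3.93 on alb-SREBP-1a replicate 6 (nearest 2.92) and Vmn2r115 at 3.41 on C57Bl6 replicate 7 (nearest 3.16).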

How the results depend on the processing

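For alb-SREBP-1a against C57Bl6 the count of 2 genes that rose became 0 in a fit of all 24 arrays, with the replicate block, quantile normalization, cyclic loess and the methods' t-test at 1.5-fold, and 1 with the methods' t-test after Benjamini-Hochberg. Of all probe sets 5.48% rose in the fit of all 24 arrays, 6% with quantile normalization, 6.64% with cyclic loess and 2.75% at 1.5-fold. The median change of this comparison turned to -0.010 with quantile normalization. Of the genes named by rule, Vmn2r23 (-0.028), Vmn2r70 (-0.041), Vmn2r111 (-0.094, and -0.052 with cyclic loess) and Vmn2r115 (-0.092, and -0.043 with cyclic loess) changed sign with it. Other members changed sign too: of all 46 genes 33 were higher as deposited and 22 as deposited and under all 3 scalings. For alb-SREBP-1a∆P against C57Bl6 the count of 35 became 9 with quantile normalization, 19 with centring, 7 with cyclic loess and 17 with the methods' t-test at 1.5-fold, and the median of 0.42 became 0.099, 0.26 and 0.080 with the 3 scalings. Of all probe sets 27% rose as deposited and 12.9%, 13.4%, 16% and 10% under these settings. Of the genes named by rule, only Vmn2r54 changed sign here, to -0.012 with cyclic loess. Other members changed sign too: all 46 genes were higher as deposited, and 32 were higher under all 3 scalings as well. Between the lines the count of 20 became 4, 7, 3 and 9, and the median of 0.35 became 0.16, 0.19 and 0.094. There 22.8% of all probe sets rose as deposited and 9.62%, 10.1%, 11.3% and 7.43% under these settings. The cause was not tested. Replicate numbers did not pair the samples: r of same-numbered deviations ran from -0.12 to 0.28 and passed 0.1 in 2, 1 and 2 of 8 pairs. With the replicate block 0, 36 and 17 genes rose in the 3 comparisons, and the share over all probe sets was not counted for it. Without alb-SREBP-1a∆P replicate 4, 35 and 23 rose, with 27.1% and 22.8% of all probe sets risen. Without alb-SREBP-1a replicates 1 and 2, 3 and 19 rose, with 5.82% and 19.8% of all probe sets risen. Over the genes named by rule, 443 values under alternatives kept their side of the threshold, 51 lost it, 9 gained it and 7 changed sign. With probe sets under the median level left out no Vmn2r gene remained, so that setting gave no value. Levels this close to the bottom of the array's range limit what a change can show.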

Other observations

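A second probe set with 1 symbol exists for 6 members. In alb-SREBP-1a∆P against C57Bl6 the dimmer probe set of Vmn2r17 rose by 0.69 ± 0.12 and its brighter by 0.37, and that of Vmn2r23 rose by 0.63 ± 0.15 where the brighter rose by 0.82. The dimmer probe set of Vmn2r111 changed by 0.50 ± 0.23 (limma adjusted p = 0.0894) and that of Vmn2r65 by 0.23 ± 0.14 (adjusted p = 0.186), neither passing. Both probe sets of Vmn2r113 held the same values on all 24 arrays.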
